A study of Mus musculus with 57 samples.

Results

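Sox1+FOXA2+ cells are cells that, during retinoic acid (RA) differentiation of mouse embryonic stem cells (ESCs), carry the reporters of a neuroectoderm gene and of an endoderm gene at the same time. The libraries described here were chosen by their sample titles. They are the 9 bulk RNA-seq libraries of cells sorted as Sox1+FOXA2+ on day 2, day 4 or day 6 (D2, D4, D6) of RA, with 3 replicates a day, out of 57 libraries in the series. Cells that were sorted early and then cultured further (progeny) were not among them. All 9 libraries came from the Sox1-EGFP/FoxA2mCherry line, in which EGFP takes the place of 1 Sox1 allele and mCherry was inserted at the end of the FoxA2 gene. The line is a clone grown from a single edited cell, so that the replicates share 1 genetic background. Cells were kept in medium with serum and LIF, were switched to N2B27 medium with 1 uM RA, and were sorted by flow cytometry into small pools of equal cell number. The D2, D4 and D6 groups differ in the time in RA. Each pool is a mean over cells that met the gate on that day, and no cell was followed from 1 day to the next. Comparison groups were the 9 libraries of Sox1-FOXA2+ cells (FOXA2 single-positive) and the 9 of Sox1+FOXA2- cells (Sox1 single-positive) from the same line, medium and days.

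SOX1 is among the earliest transcription factors of the neural plate. FOXA2 is a pioneer factor of definitive and extraembryonic endoderm, and also of node, notochord and floor plate. Parietal endoderm lies on the inner face of the trophoblast and secretes a thick basement membrane. Its main parts are the laminin trimer of Lama1, Lamb1 and Lamc1, the collagen IV chains Col4a1 and Col4a2, and the calcium-binding matrix protein Sparc. Visceral endoderm is an absorptive epithelium that takes up maternal protein through the receptors cubilin and megalin with the adaptor DAB2. RA is carried to the nucleus by CRABP2, acts through RA receptors bound to repeated sites in DNA, and is removed by the CYP26 enzymes.

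The gate genes were read first. Foxa2 (chr2:148042877-148046969 in GRCm38, minus strand) had 1582, 1956 and 1067 normalized counts at D2 in replicates 1, 2 and 3. At D4 it had 214, 528 and 1091, and at D6 it had 0, 728 and 76.6. A normalized count is the read count of a gene divided by the DESeq2 size factor of the library, and values are given throughout in the order of replicates 1, 2 and 3. The library labelled D6 replicate 1 thus goes against its label at the RNA level, since a count of 0 allows at most 3.64 normalized counts in it (3 counts, counting error only). D6 replicate 3 lay inside the range of the Sox1+FOXA2- libraries of D6, which was 20.3 to 131. All 3 D6 libraries lay below the Sox1-FOXA2+ libraries of D6, which ran from 1478 to 2697. The D6 and D2 values of Foxa2 did not overlap, but the log2 fold change of -2.66 ± 1.42 (SE) was not called (edgeR quasi-likelihood test with Benjamini-Hochberg adjustment, adjusted p = 0.41), and it was -2.08 without D6 replicate 1. The counts of calls between D2 and D6 and many list medians are therefore also given without that library. Sox1 was listed at 0 in all 57 libraries and could not be checked. All its exon bases lie inside another annotated gene, and 1363 of 1494 protein-coding genes of that kind (91.2%) were at 0 in all 57 libraries, against 2.39% of the protein-coding genes whose exons overlap no other gene.

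The 9 libraries held 21995880 to 53917146 counts each in genes, and 14458 to 24853 genes had at least 1 count. Mitochondrial genes took 5.51% to 12.9% of the counts. D6 replicate 2 had both the smallest total and the fewest genes detected.

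The main question was how cells inside the gate differed between D2 and D6. Genes of basement membrane and of endocytosis rose, from 12.9-fold for Lamc1 to 97.5-fold for Cubn in the ratio of the means, while the RA-inducible gene Stra8 fell to 0.137 of its D2 mean. Of 21429 genes tested in 1 edgeR fit over the 9 libraries, 16 rose (0.0747%) and 3 fell (0.014%). Those that rose were Cemip, Cubn, Srgn, Sparc, Epas1, Lama1, Slc14a2, Ankrd33b, Gria1, Unc5d, Dab2, Nrg2, Lamc1 and Tfpi, beside the clone-named Gm12381 and 4930440I19Rik. Those that fell were Halr1, Stra8 and F11r. Nrg2 and Tfpi lay outside the rule for named genes and were named after their values were seen. An unadjusted p under 0.05 was found for 2861 genes, and the median log2 fold change over all genes was 0.44. Without D6 replicate 1 the test called 35 genes higher and 7 lower, and over all 9 fits that left out 1 library it called 16 (without D6 replicate 3) to 126 genes (without D2 replicate 3). In pools of sorted cells, a larger share of cells that express a gene and more RNA of it per cell cannot be told apart.

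Basement membrane genes were the largest group among them. Of 16 listed genes of the basement membrane and its enzymes, all were tested and 3 rose, which were Lama1, Lamc1 and Sparc. Lama1 (chr17:67697259-67822647, plus strand), the alpha chain of the early embryonic laminin, had 2147, 6631 and 4050 normalized counts at D2. It had 5590, 1544 and 4023 at D4, and 23941, 49196 and 207439 at D6. All 3 D6 libraries stood above every earlier library, with D6 replicate 3 far above the other two. The log2 fold change from D2 to D6 was 4.19 ± 0.72 (adjusted p = 0.026). Lamc1 (chr1:153218922-153332786, minus strand), the gamma chain of the same trimer, had 7192, 5994 and 2811 at D2 and 22232, 42667 and 142064 at D6. Its log2 fold change was 3.40 ± 0.60 (adjusted p = 0.027). Lamb1 (chr12:31265234-31329644, plus strand), the beta chain, had 7272, 7533 and 1769 at D2 and 18129, 24641 and 112434 at D6. The groups did not overlap for the beta chain either, but its log2 fold change of 2.91 ± 0.67 was not called (adjusted p = 0.14).

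Sparc (chr11:55394500-55423183, minus strand) was the most even of the named matrix genes at D2, with 3052, 2878 and 3352 normalized counts. At D4 it had 6233, 3272 and 5874, and at D6 it had 16580, 89817 and 124761. Its log2 fold change of 4.41 ± 0.61 (adjusted p = 0.0046) came with the lowest value in D6 replicate 1, the library without Foxa2 counts. The collagen IV chains, which cross-link into the sheet on which laminin is anchored, followed the same order of libraries at D6 as the laminins. Col4a1 had 4213, 12402 and 4768 at D2 and 15829, 26608 and 166091 at D6, and Col4a2 had 2434, 5940 and 1433 at D2 and 8360, 17801 and 55556 at D6. Neither was called (log2 fold changes of 3.002 ± 0.74 and 2.77 ± 0.68, adjusted p = 0.18 for each). Of the enzymes that modify collagen, the prolyl hydroxylases P4ha1, P4ha2 and P3h2 and the lysyl hydroxylase Plod2 had D6 values above all D2 values, with log2 fold changes of 1.72 to 3.39 that were not called.

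Of the 16 genes, 10 had D6 values above all D2 values and none had them below. Over all genes tested these shares were 10.8% and 4.47%, and the same shares apply to such counts between D2 and D6 in the lists below. The median log2 fold change of the list was 2.29, against 0.44 over all genes. It was 2.63 without D6 replicate 1, 2.37 without D6 replicate 2 and 1.11 without D6 replicate 3. The summed normalized counts of the list ran from 38990 to 77484 at D2, from 42188 to 84602 at D4 and from 151144 to 934070 at D6. Lama5, Plod1 and Nid1 were near 0 in D6 replicate 2 alone, at 15.2, 0 and 21.2 normalized counts.

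**Figure D1:**
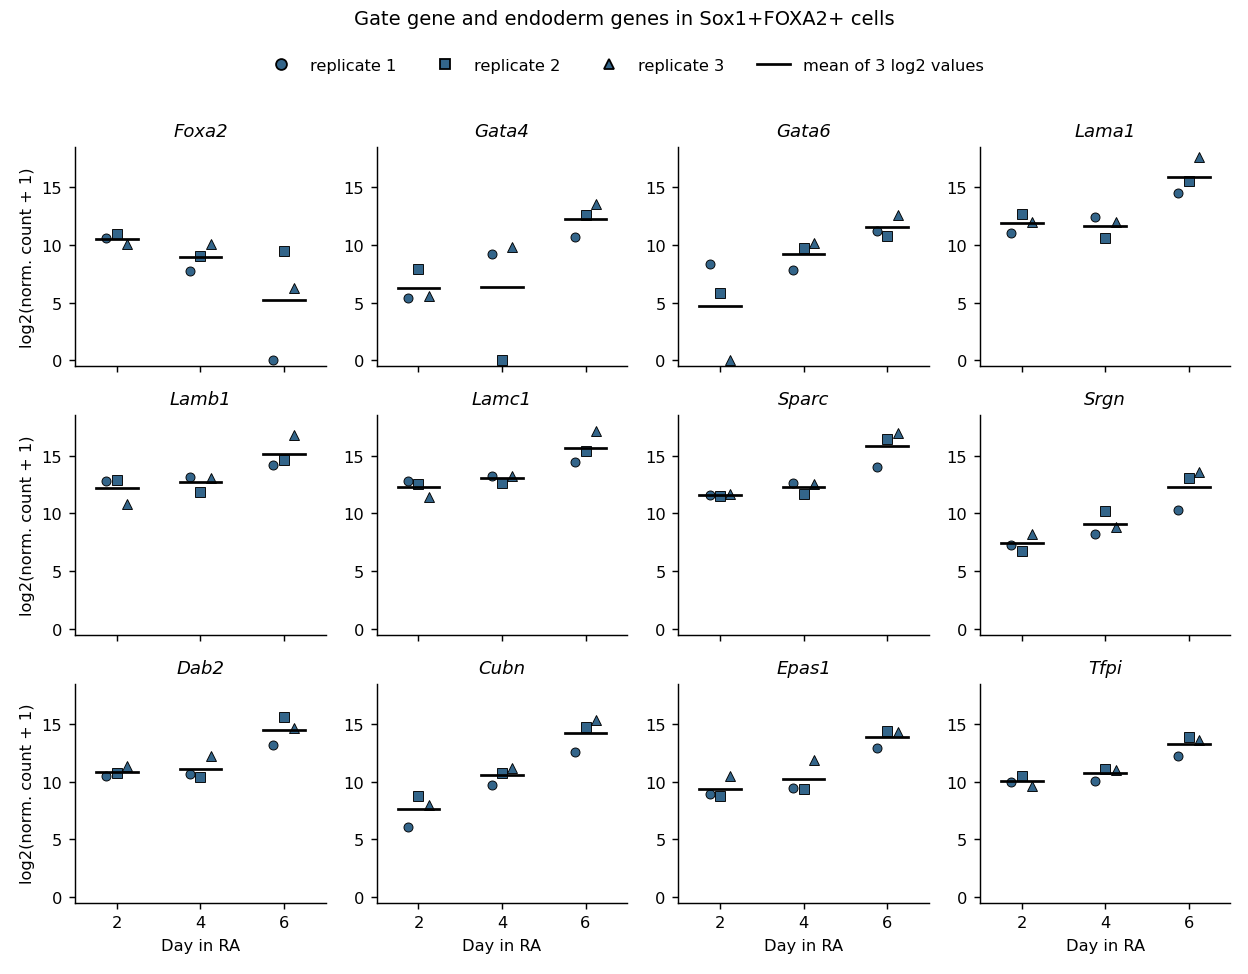
Normalized counts on a log2 scale (pseudocount 1) of the gate gene Foxa2 and of 11 endoderm genes, by day in RA, in the 9 Sox1+FOXA2+ libraries. Symbols are replicates and bars the mean of 3 log2 values. Foxa2 lies lowest at D6, where replicate 1 is at 0, while the D6 values of Lama1, Lamc1, Sparc, Dab2, Cubn, Epas1 and Tfpi lie above those of D2 and D4.

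Endocytosis genes of the yolk sac type rose beside the matrix genes. Cubn (chr2:13276338-13491813, minus strand), the receptor cubilin, had 65.9, 436 and 257 normalized counts at D2, 845, 1703 and 2354 at D4, and 6093, 27013 and 40906 at D6. The 3 days did not overlap, and each later day stood above the one before. The log2 fold change from D2 to D6 was 6.39 ± 0.79 (adjusted p = 0.0027), and 23.8% of its exon bases lie inside another annotated gene. Dab2 (chr15:6299788-6440712, plus strand), an adaptor that links such receptors to clathrin, had 1456, 1688 and 2682 at D2, 1641, 1371 and 4814 at D4, and 9255, 48664 and 25320 at D6. Its log2 fold change was 3.65 ± 0.61 (adjusted p = 0.022). Lrp2, the receptor megalin, had 6061, 6377 and 5306 at D2 and 17147, 24535 and 36688 at D6, with a log2 fold change of 1.87 ± 0.40 that was not called in this contrast (adjusted p = 0.098). Lrpap1, a chaperone of megalin and related receptors, had 1189, 858 and 273 at D2 and 3841, 14935 and 22213 at D6, and was not called (3.87 ± 0.74, adjusted p = 0.051).

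Genes of secreted products of yolk sac visceral endoderm were mixed. Apoe, an apolipoprotein, had 1660, 1922 and 1212 normalized counts at D2 and 2267, 3379 and 6255 at D6, with no overlap, and was not called (1.03 ± 0.78, adjusted p = 0.63). Several others were at or near 0. Afp, Apoa1 and Trf were at 0 in all 3 D2 libraries and reached at most 50.1, 16.7 and 99.4 normalized counts at D6. Apoa1 had 871 in D4 replicate 2 and Afp had 181 in D4 replicate 3. Of the exon bases of Afp 63.8% lie inside another gene, as do 95.9% of those of Trf. Ttr had 177, 3.03 and 5.57 at D6 and Rbp4 had 4.85, 0 and 0. Of 18 listed genes of yolk sac endoderm products and endocytosis, 13 were tested and 2 rose, Cubn and Dab2. For 5 of the 13 the D6 values lay above all D2 values and for 1, Apob, below. The median log2 fold change was 1.63. It was 2.15 without D6 replicate 1, 1.06 without D6 replicate 2 (7 of 13 positive) and 1.04 without D2 replicate 3.

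Among parietal endoderm products, Srgn and Sparc rose. Srgn (chr10:62493833-62527451, minus strand), the core protein of a secreted proteoglycan, had 154, 103 and 303 normalized counts at D2, 294, 1201 and 461 at D4, and 1274, 8411 and 12295 at D6. The log2 fold change was 5.09 ± 0.83 (adjusted p = 0.020). Pth1r, the receptor for parathyroid hormone-related protein, had 212, 111 and 370 at D2 and 2347, 2511 and 6422 at D6 (3.76 ± 0.83, adjusted p = 0.12). Fst, an activin antagonist, was the most even of the list at D6, with 2110, 2472 and 2798, but its D2 libraries were spread from 59.9 to 781. Pdgfra, a receptor of primitive endoderm and its descendants, had 999, 1785 and 7130 at D6 and 239, 2.72 and 71.0 at D2. Of 12 listed genes 11 were tested, and 7 of these had D6 values above all D2 values. Lamb1 and Sparc, which are also in the basement membrane list, were among the 7. The median log2 fold change was 4.41, which is the value of Sparc. The median was 4.90 without D6 replicate 1 and 3.45 without D6 replicate 3.

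The transcription factors of endoderm were higher at D6 in several cases without being called. Gata4, a zinc finger factor of extraembryonic endoderm and heart, had 41.6, 241 and 46.4 normalized counts at D2, 605, 0 and 889 at D4, and 1707, 6203 and 11780 at D6. Its related factor Gata6 had 332, 56.3 and 0 at D2 and 2345, 1796 and 6179 at D6. The D6 libraries of both stood above all D2 libraries, and the log2 fold changes were 5.64 ± 1.37 and 4.36 ± 1.29 (adjusted p = 0.17 and 0.30). Sox7, which marks parietal endoderm, had 333, 220 and 431 at D2 and 766, 3452 and 3936 at D6 (2.83 ± 1.22, adjusted p = 0.37). Sox17 overlapped between the days, with 224, 701 and 445 at D2 and 487, 2348 and 1290 at D6. Of 12 listed factors 11 were tested and none was called by edgeR, with 4 at an unadjusted p under 0.05 and 4 called by DESeq2. For 4 the D6 values lay above all D2 values, and for Foxa1 and Foxa2 they lay below.

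Several genes that rose belong to none of these lists. Epas1 (chr17:86753700-86833410, plus strand), the hypoxia-inducible factor 2 alpha, had 473, 434 and 1425 normalized counts at D2, 692, 645 and 3721 at D4, and 7900, 21678 and 20668 at D6 (4.23 ± 0.70, adjusted p = 0.022). Tfpi, an inhibitor of the tissue factor pathway of clotting, had 999, 1392 and 802 at D2 and 4813, 15244 and 12402 at D6 (3.11 ± 0.54, adjusted p = 0.027). Cemip, a hyaluronan-binding protein needed for hyaluronan breakdown, had 134, 120 and 10.9 at D2, 843, 2200 and 2543 at D4, and 1654, 10915 and 24717 at D6. The rise of Cemip by 6.84 ± 1.00 on the log2 scale was the largest among the called genes other than the clone-named ones (adjusted p = 0.0079). Nrg2, a ligand of ErbB receptors, had 527, 334 and 654 at D2 and 2793, 5202 and 13482 at D6 (3.57 ± 0.65, adjusted p = 0.030). Ankrd33b had 170, 434 and 221 at D2 and 2464, 7483 and 5298 at D6 (3.98 ± 0.69, adjusted p = 0.026).

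Another 3 genes had much of their difference by D4, with log2 differences of -0.48 to 0.46 between D4 and D6 that were not called. Gria1, a subunit of AMPA glutamate receptors, had 195, 120 and 127 normalized counts at D2, 2272, 3651 and 3975 at D4, and 3736, 901 and 2713 at D6 (D6 against D2 3.68 ± 0.68, adjusted p = 0.034). Unc5d, of the family of netrin receptors, had 155, 209 and 480 at D2, 925, 7947 and 4139 at D4, and 6057, 2963 and 4113 at D6 (3.67 ± 0.68, adjusted p = 0.037). Slc14a2, a urea transporter, had 193, 189 and 126 at D2, 1225, 1379 and 5787 at D4, and 6662, 1456 and 3583 at D6 (4.14 ± 0.74, adjusted p = 0.029). In all 3 genes D6 replicate 1 was the highest and replicate 2 the lowest D6 library, whereas D6 replicate 1 was the lowest for the laminins. Without D6 replicate 1, Gria1 and Slc14a2 were no longer called, while Unc5d was.

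Of all 16 genes that rose, Sparc, Dab2, Epas1, Cubn, Lama1 and Cemip were called in each of the 9 fits that left out 1 library, as were Gm12381 and 4930440I19Rik. The other named genes lost the call in 1 to 3 of these fits. Lamc1, Srgn and Nrg2 lost it without D6 replicate 3, where the adjusted p was 0.068, 0.067 and 0.30.

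The gene that fell with the smallest adjusted p was a target of RA. Stra8 (chr6:34920163-34939344, plus strand), which germ cells need to enter meiosis and which RA induces in ESCs, had 22592, 16182 and 20473 normalized counts at D2, 7255, 8502 and 7577 at D4, and 4299, 1322 and 2518 at D6. The 3 days did not overlap, and the log2 fold change from D2 to D6 was -3.22 ± 0.43 (adjusted p = 0.0044). It was -3.59 without D6 replicate 1. Halr1 (chr6:52102949-52113684, plus strand), a long noncoding RNA beside the Hoxa cluster, had 6494, 3733 and 5343 at D2, 754, 4242 and 1705 at D4, and 744, 591 and 358 at D6 (-3.51 ± 0.62, adjusted p = 0.027). F11r (chr1:171437535-171464603, plus strand), a junctional adhesion molecule of epithelia, had 4728, 5952 and 6134 at D2, 1916, 2732 and 2688 at D4, and 1295, 1028 and 1209 at D6. For F11r the log2 fold change was -2.55 ± 0.46 (adjusted p = 0.030), and its 3 D6 libraries differed by less than those of any other called gene named here. Stra8 kept its call in all 9 fits that left out 1 library, while Halr1 lost it in 2 and F11r in 4, with adjusted p of up to 0.10 and 0.14.

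Other genes of RA response and metabolism moved in different ways. Of 16 listed genes all were tested, Stra8 alone was called, and the D6 values lay below all D2 values for Stra8, Crabp2 and Cyp26b1 and above them for Aldh1a3. Over all genes tested 4.47% lay below and 10.8% above. Crabp2, the carrier of RA, had 2973, 4163 and 3750 normalized counts at D2 and 31.5, 2657 and 393 at D6 (-1.96 ± 0.93, adjusted p = 0.37). Cyp26a1, the main RA-degrading enzyme of the early embryo, had 2007, 1405 and 1643 at D2, 471, 748 and 735 at D4, and 252, 2311 and 1334 at D6. It was thus lower in every D4 library than at D2, while its D6 libraries spanned the D2 range. Rarb, the RA receptor gene that RA itself induces, had 4546, 3356 and 2727 at D2, 5724, 4061 and 6536 at D4, and 5328, 1626 and 2418 at D6 (-0.56 ± 0.48, adjusted p = 0.70). The median log2 fold change of the list was -0.57, against 0.44 over all genes, and 10 of the 16 were negative. Without D6 replicate 1 it was -0.67.

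RA receptors bind as pairs with RXR, and their sites are direct repeats of a short core sequence with a fixed spacer. Rarb and Cyp26a1 were picked because no other gene of the RA or Hox lists held a match to a repeat searched here. Stra8, the called gene of the RA list, was added to them. The sequences upstream of the RefSeq start sites of these 3 genes are shown. They are RefSeq sequences of GRCm38.p6, 250 bases long, 5′ to 3′ on the strand of the gene and ending at the base before the start site, with capitals for a match to the repeat NGNTCANNNNNNGNTCA. That repeat, in which N is any base and the core NGNTCA occurs again after 5 bases, was searched on both strands, as were the same repeats with 2 bases (NGNTCANNNGNTCA) and 1 base (NGNTCANNGNTCA) between.
Rarb, chr14:16575477-16575726, minus strand: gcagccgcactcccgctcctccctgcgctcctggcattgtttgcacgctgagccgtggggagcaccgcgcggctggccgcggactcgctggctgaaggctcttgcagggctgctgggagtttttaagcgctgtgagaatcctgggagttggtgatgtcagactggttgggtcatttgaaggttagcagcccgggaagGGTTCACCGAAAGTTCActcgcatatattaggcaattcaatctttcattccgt
Cyp26a1, chr19:37697558-37697807, plus strand: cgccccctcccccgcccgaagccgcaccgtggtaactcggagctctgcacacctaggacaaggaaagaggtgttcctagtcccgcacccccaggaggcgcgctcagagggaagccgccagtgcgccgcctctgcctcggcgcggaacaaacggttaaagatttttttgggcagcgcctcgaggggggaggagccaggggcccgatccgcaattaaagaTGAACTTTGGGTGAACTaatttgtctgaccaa
Stra8, chr6:34920698-34920947, plus strand: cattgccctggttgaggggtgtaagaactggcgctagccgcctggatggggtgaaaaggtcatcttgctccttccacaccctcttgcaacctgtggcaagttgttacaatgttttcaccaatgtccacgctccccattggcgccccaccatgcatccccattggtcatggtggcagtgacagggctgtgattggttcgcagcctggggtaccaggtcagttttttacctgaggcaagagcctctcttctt
The Rarb window holds the repeat beginning 53 bases before the start site, and the Cyp26a1 window holds it on the opposite strand, beginning 32 bases before. None of the 3 repeats was found in the Stra8 window. The RefSeq starts differ from the GENCODE gene spans used for the counts (Rarb, chr14:16430839-16819156; Cyp26a1, chr19:37697798-37701536; Stra8 as above), so that the Rarb and Stra8 windows lie inside those spans. Of 32851 promoter windows of 300 bases (250 before and 50 after a start site), 0.861% held the repeat with 5 bases between, 1.11% that with 2 and 1.25% that with 1. Of the RA list, 11 symbols had a window, and 2 of them (18.2%) held the repeat with 5 bases between. None of the 22 Hox genes with a window held any of the 3. These are matches of letters only.

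Hox genes, which RA induces in an order set by their place in the cluster, could be read in part. Of 39 listed genes 12 were at 0 in all 57 libraries, and in all 12 every exon base lies inside another annotated gene, which holds for none of the other 27. The filter left 15. None was called by edgeR, with 3 at an unadjusted p under 0.05 and 3 called by DESeq2. Hoxb1, the first of the Hoxb cluster to be induced by RA, had 1834, 1715 and 606 normalized counts at D2, 198, 2.79 and 1346 at D4, and 172, 3.03 and 58.5 at D6 (-4.60 ± 1.65, adjusted p = 0.37). Hoxb9, toward the other end of the cluster, had 1607, 1190 and 1594 at D2 and 609, 215 and 71.0 at D6 (-2.66 ± 1.08, adjusted p = 0.37). The D6 values lay below all D2 values for Hoxb1, Hoxb4, Hoxb8 and Hoxb9, and for no Hox gene above. The median of the 15 was -0.16 with TMM scaling and turned to 0.05 with DESeq2 size factors, under which the median over all genes was 0.65. Both medians lay below that over all genes. The TMM value rested on single libraries, with 0.45 without D2 replicate 1 (10 of 15 positive), -0.65 without D2 replicate 3, -0.59 without D6 replicate 2 and -0.92 without D6 replicate 3, and it was -0.39 without D2 replicate 2 and -0.14 without D6 replicate 1.

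Neural progenitor genes were present on all 3 days, with log2 fold changes of both signs between D2 and D6. Pax6, a transcription factor of the neural tube and eye, had 2061, 454 and 1054 normalized counts at D2, 332, 1882 and 793 at D4, and 376, 2924 and 90.5 at D6. Nes, the intermediate filament nestin of neural progenitors, had 2828, 6101 and 3895 at D2, 5312, 6026 and 1316 at D4, and 4139, 6985 and 430 at D6. In both genes D6 replicate 2 was the highest and D6 replicate 3 the lowest of all 9 libraries, and D6 replicate 3 was the library with the most laminin and collagen IV. Meis2, a homeodomain cofactor of Hox proteins, had 7342, 6012 and 12531 at D6. Of 22 listed genes 17 were tested and none was called by edgeR or DESeq2 or had an unadjusted p under 0.05, with a median log2 fold change of -0.26 and 10 of 17 negative. The median was near 0 without D2 replicate 1 (0.02), D2 replicate 2 (-0.03), D6 replicate 1 (-0.02) or D6 replicate 3 (0.06). Over all genes the median was 0.44 in the main fit, and 0.81, 0.66, 0.25 and 0.30 in these fits in the same order. The list thus lay below all genes in each of them. Of 20 listed genes of neuronal differentiation 12 were tested, with 8 log2 fold changes positive and 3 negative (median 0.65). None was called by edgeR, with 3 at an unadjusted p under 0.05 and 2 called by DESeq2. The D6 values lay above all D2 values for 2, Mapt among them, and below for 2, Ina among them. The microtubule protein gene Mapt had 391, 651 and 139 at D2 and 2951, 2522 and 1533 at D6. The neuronal filament gene Ina had 1459, 1013 and 1567 at D2 and 250, 149 and 288 at D6 (adjusted p = 0.37 for both genes).

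**Figure D2:**
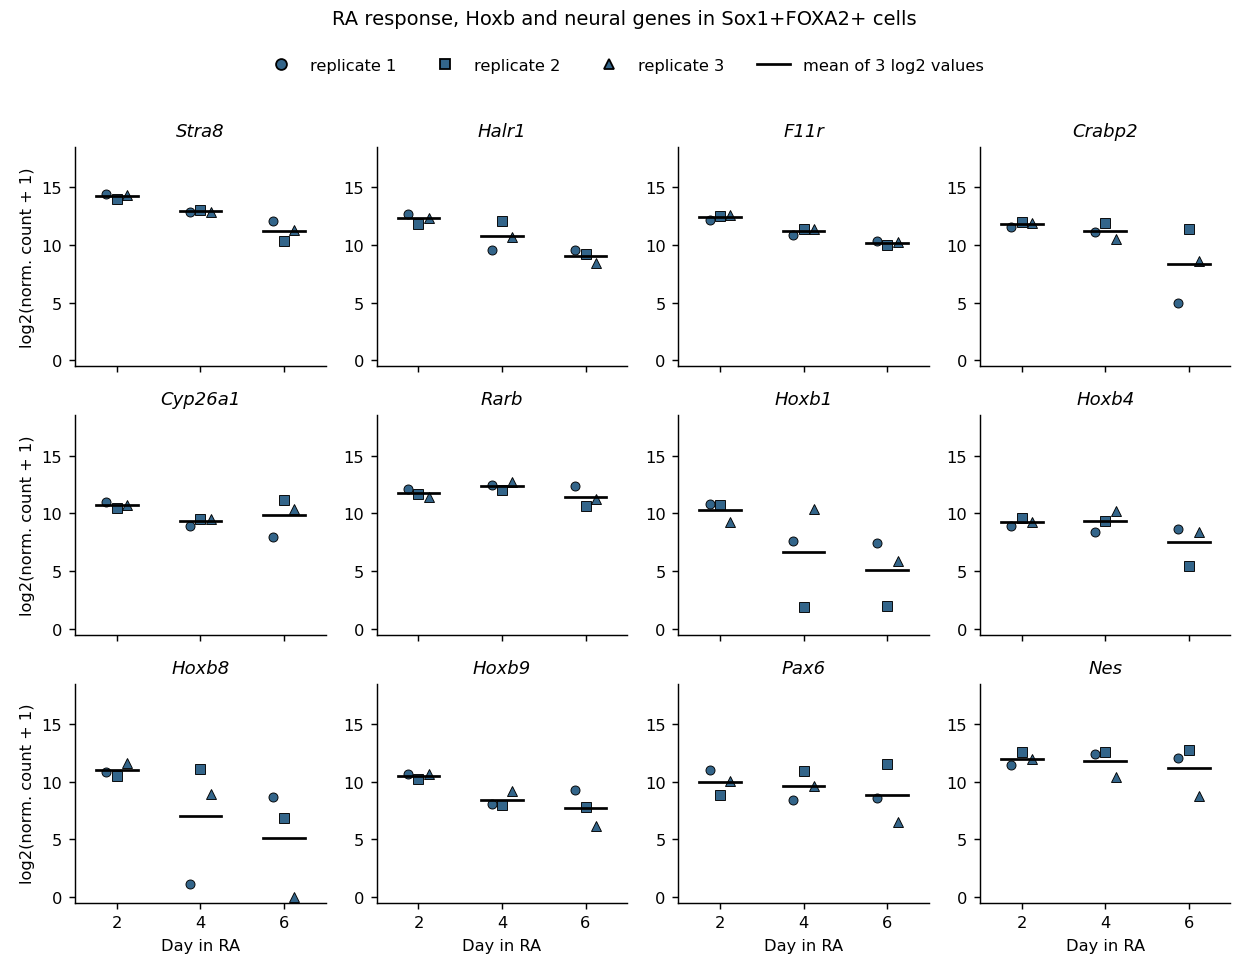
Normalized counts on a log2 scale (pseudocount 1) of RA response, Hoxb and neural genes by day in RA in the 9 Sox1+FOXA2+ libraries. Symbols are replicates and bars the mean of 3 log2 values. Stra8, Halr1 and F11r lie lower at D6 than at D2 in every library, while Pax6 and Nes at D6 hold both the highest and the lowest library.

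Most calls concerned the whole span of 4 days, and steps between neighbouring days gave few. From D2 to D4, 4 genes rose (0.0187% of those tested) and none fell. They were Gria1 (4.16 ± 0.69, adjusted p = 0.043) and the clone-named Gm1995, Gm12381 and 4930440I19Rik. Gm1995 was at 0 in all D2 libraries and had 5880, 4738 and 306 normalized counts at D4 and 114, 0 and 272 at D6. From D4 to D6 edgeR called 0 genes (0%), with 539 at an unadjusted p under 0.05, and DESeq2 called 158. The smallest adjusted p among the basement membrane genes in that step were those of Sparc (3.93 ± 0.59, adjusted p = 0.0501) and Lama1 (4.61 ± 0.73, adjusted p = 0.051). The log2 fold changes of Lama1 and Sparc from D2 to D4 were -0.42 ± 0.63 and 0.48 ± 0.53. A test of any change over the 3 days called 20 genes (0.0933%). It included Pth1r, Lrp2 and Lrpap1 (adjusted p = 0.014, 0.049 and 0.034), which the single contrasts had missed.

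Of the 36 gene lists, 32, the endoderm transcription factors among them, held no gene called by edgeR between D2 and D6. In each of them 0 to 5 genes had an unadjusted p under 0.05, and DESeq2 called 0 to 4. Their medians ran from -0.94 (p53 targets) to 3.40 (2-cell-like genes, 2.81 with genes at 0 on 1 day set to their bound). The 16 G2/M genes, which act in mitosis, all had negative log2 fold changes, with a median of -0.76 that was -0.55 with DESeq2 size factors and -0.52 without D6 replicate 1, when 13 of 16 were negative. Among them Aurkb, the kinase of the chromosomal passenger complex, had 2659, 2572 and 5868 normalized counts at D2 and 1479, 2166 and 1316 at D6. Of 13 tested S phase genes 12 were negative, with a median of -0.74 (-0.65 without D6 replicate 1). Mcm3, a subunit of the replicative helicase, had 9271, 10829 and 10404 at D2 and 5332, 6885 and 4408 at D6. Aurkb was 1 of 5 G2/M genes, and Mcm3 1 of 3 S phase genes, with D6 values below all D2 values (4.47% over all genes). The mean log2 level of the G2/M list differed from its D2 mean by -0.90, 0.03 and -0.62 in D6 replicates 1, 2 and 3. For the S phase list these differences were -0.25, -0.05 and -0.55, so that D6 replicate 2 was near the D2 mean in both.

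Of 20 genes of cholesterol and fatty acid synthesis none was called by edgeR between D2 and D4, with 6 at an unadjusted p under 0.05 and 1 called by DESeq2. The log2 fold changes of 19 of them were negative, with a median of -1.10. Between D2 and D6 the median was -0.32, and it was -0.84 without D6 replicate 2 (17 of 20 negative) and -0.10 without D6 replicate 1. The mean log2 level of the list differed from its D2 mean by 0.87 in D6 replicate 2 and by -0.50 and -0.52 in replicates 1 and 3. Fasn, the fatty acid synthase, had a mean of 38384 ± 4537 (SD, n = 3) at D2, 16221 ± 1024 at D4 and 18847 ± 9662 at D6. Of 15 naive pluripotency genes tested 13 had positive log2 fold changes from D2 to D6 (median 1.12), as had 11 of 15 core and formative pluripotency genes (median 0.77). None of either list was called by edgeR. In each, 2 had an unadjusted p under 0.05, and DESeq2 called 3 naive genes and no core gene. The median over all genes was 0.44. Without D6 replicate 1 the medians of the 2 lists were 1.52 and 0.98, and without D6 replicate 3 the naive median was 0.67. The core median was 0.72 without D2 replicate 1 and 0.67 without D2 replicate 3, below the medians over all genes of 0.81 and 0.75. Lin28a, whose protein holds back let-7 maturation, went the other way, with 19139, 23410 and 17305 normalized counts at D2 and 5317, 13549 and 5354 at D6 (-1.54 ± 0.46, adjusted p = 0.31). Klf5, which is shared by ESCs and extraembryonic lineages, had 726, 1423 and 614 at D2 and 2684, 10768 and 8745 at D6 (2.77 ± 0.69, adjusted p = 0.19). Prdm1, the repressor BLIMP1, had 4328, 6780 and 4045 at D2 and 1649, 446 and 941 at D6 (-2.69 ± 0.54, adjusted p = 0.070).

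Markers of other cells that the gate could hold differed by list. Of 12 mesendoderm genes 6 were tested, and their summed normalized counts ran from 641 to 947 at D2, from 55.8 to 1819 at D4 and from 434 to 1778 at D6. T, which defines the primitive streak, was at 0 in 5 of the 9 libraries and reached at most 265. Gsc was at 0 in all D6 libraries. Of 8 node and notochord genes 7 were tested, with sums of 1116 to 1633 at D2 and 969 to 9451 at D6, and Shh, which notochord secretes, was at 0 in 8 of the 9 libraries, with 48.8% of its exon bases inside another gene. For 6 of the 7 the log2 fold change from D2 to D6 was positive (median 2.09), with none called by edgeR, 3 at an unadjusted p under 0.05 and 3 called by DESeq2. The mean log2 level of that list differed from its D2 mean by 4.001 and 3.23 in D6 replicates 1 and 3 and by -1.34 in replicate 2. Neural crest and mesenchyme genes were split in the same way, with sums of 15929, 3208 and 14721 at D6 against 2788 to 5184 at D2. Their median over 15 tested genes was 1.09, with none called by edgeR, 2 at an unadjusted p under 0.05 and 1 called by DESeq2, and it turned to -0.41 without D6 replicate 1. The part of such cells in the results above was not tested. The 2-cell-like genes stood apart in D4 replicate 1. Zscan4c had 18214 normalized counts there, against 2890 and 60.3 in the other D4 libraries, 30.1, 0 and 412 at D2, and 570, 1137 and 171 at D6. The copies of this family are nearly identical, and their single values are uncertain.

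**Figure D3:**
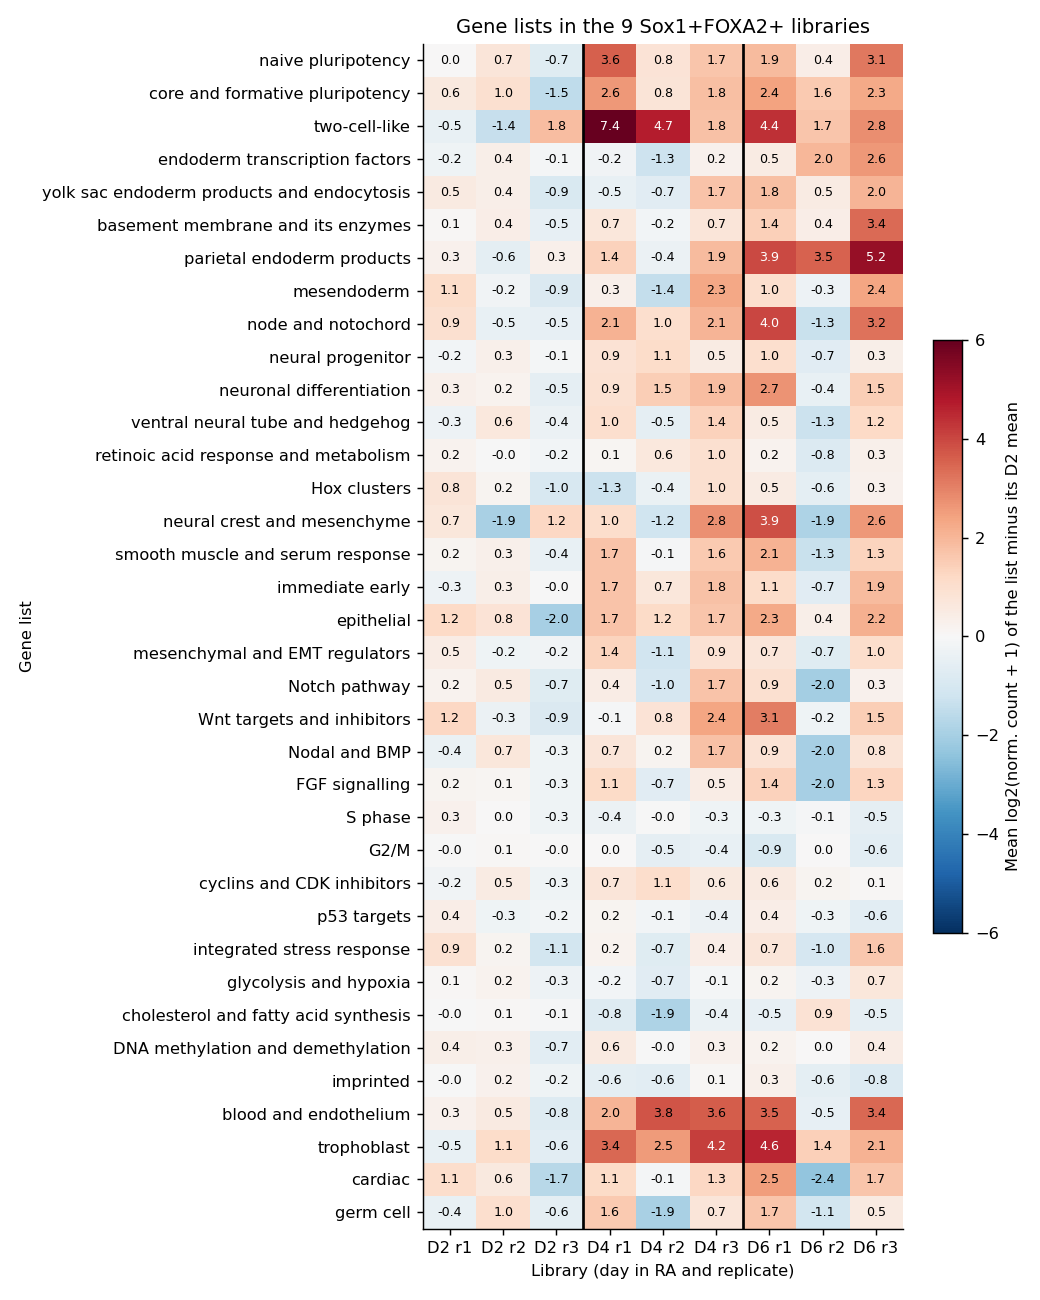
Gene lists (rows) in the 9 Sox1+FOXA2+ libraries (columns, by day and replicate). The colour and number give the mean log2(normalized count + 1) of the list minus its D2 mean. Parietal endoderm products are 3.5 to 5.2 above their D2 mean in all D6 libraries, while 2-cell-like genes stand highest in D4 replicate 1, at 7.4.

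The replicates of this gate were far apart, most of all at D6. The measure was the median of the absolute difference in log2(normalized count + 1) between 2 replicates. In every condition it was taken over the same 16234 genes, those with a mean of at least 100 normalized counts over the Sox1+FOXA2+ libraries. It averaged 1.01 over the 3 pairs of D2, 1.13 at D4 and 1.35 at D6. These were the 3 highest of the 13 sorted conditions of the series, and the others ran from 0.524 to 0.979. Because the genes were chosen on this gate alone, its rank among the conditions can depend on that choice. Genes chosen on the other gates were not tried. The 3 pairs of a day share libraries, and no test was made. At D6 replicates 1 and 3 differed by 0.789, a median 1.73-fold difference. Replicate 2 differed from them by 1.74 and 1.53, which are 3.34-fold and 2.89-fold.

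**Figure D4:**
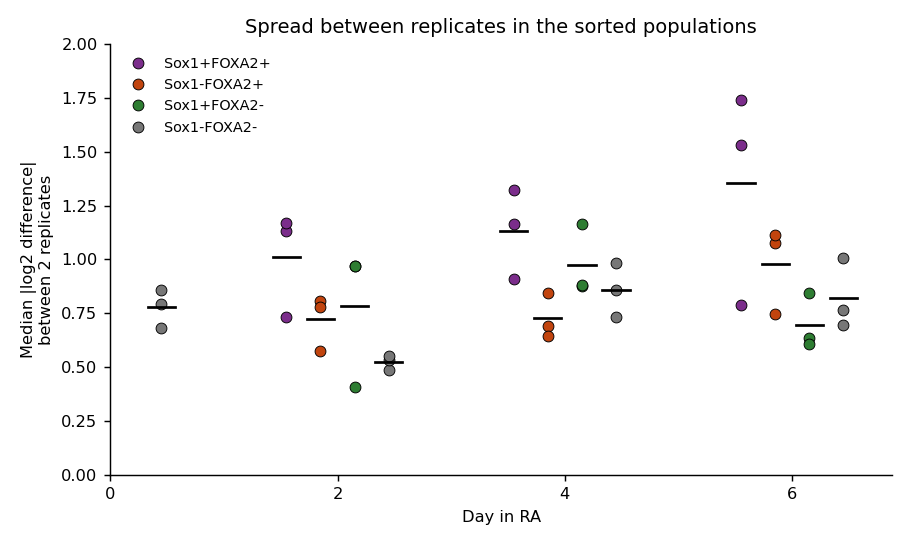
Median absolute log2 difference between 2 replicates over 16234 genes chosen by their mean in the Sox1+FOXA2+ libraries, by day in RA, for each sorted population. Points are the 3 pairs of replicates and bars their mean. The Sox1+FOXA2+ population has the highest mean on each of D2, D4 and D6, and at D6 the pairs with replicate 2 lie at 1.53 and 1.74.

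Genes at 0 went along with this spread. D6 replicate 2 held 3642 of the 16234 genes at 0, against 364 in replicate 1 and 255 in replicate 3. Among genes with a mean of at least 100 on a given day, 14.2% had a library at 0 at D2, 18.1% at D4 and 26.1% at D6. All 10 genes with the largest SD over the D6 libraries were at 0 in replicate 2. They were Nell2, Nrcam, Ninj2, Dclk2, Mical2, Flrt2, Tmeff2, Morc1, Lrig1 and Esrrb, with SDs of 6.55 to 6.85 on the log2 scale. Nell2, a secreted protein of neurons, had 5494, 0 and 2369 normalized counts, and Esrrb, an orphan nuclear receptor of naive ESCs, had 1574, 0 and 3955. The part of depth and of RNA capture in this was not tested.

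The D6 libraries also differed in what they were nearest to. The same measure was taken against the mean log2 profile of each other sorted group of D2, D4 and D6. The sorted group of day 0 was not compared. Replicates 1 and 3 were nearest to Sox1+FOXA2- cells of D6, at 0.882 and 0.664. Sox1+FOXA2+ cells of D4 came next, at 0.912 and 0.757. Replicate 2 was at least 1.44 from every group compared. The highest levels of Dab2, Gata6 and Foxa2 at D6 did not all fall in the same library, since replicate 2 was highest for Foxa2 and Dab2 and replicate 3 for Gata6.

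The design also allows a test of whether the change from D2 to D6 differed from that in the single-positive gates. It was fitted over 27 libraries, and 26946 genes were tested. Against Sox1+FOXA2- cells the change differed for 10 genes (0.0371%), all of them higher at D6 in Sox1+FOXA2+ cells. They were Srgn (difference in log2 fold change 5.25 ± 0.93), Lama1 (5.21 ± 0.93), Lrpap1 (4.78 ± 0.79), Pth1r (4.50 ± 0.82), Epas1 (4.39 ± 0.82), Dab2, Sparc, Lamc1, Lamb1 and Tfpi, with adjusted p from 0.012 to 0.025. In Sox1+FOXA2- cells Lama1 had 5195, 3325 and 1547 normalized counts at D2 and 2286, 1762 and 2031 at D6, and Srgn had 256, 120 and 354 at D2 and 237, 124 and 414 at D6. For all 10 genes every Sox1+FOXA2+ library of D6 stood above every Sox1+FOXA2- library of D6. The genes were picked by the test on these same libraries, so this describes their levels and adds nothing to the test. Without D6 replicate 1 of Sox1+FOXA2+ cells 20 genes were called. Of the 10 genes, Pth1r kept its call in 9 and Lamb1 in 10 of 12 fits that left out 1 library, and the others kept it in all 12. Lamb1 had an adjusted p of 0.14 without D6 replicate 3 of Sox1+FOXA2+ cells. Pth1r also lost its call with all 36 sorted libraries in the fit (adjusted p = 0.51).

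Against Sox1-FOXA2+ cells 1 gene was called (0.00371%), and it was none of these. The differences for the same 10 genes ran from -0.73 to 0.77, with SEs of 0.60 to 0.88, and none was called (adjusted p from 0.92 to 1). With such errors a difference of that size could not be told from none. Levels were nonetheless lower at D6 than in Sox1-FOXA2+ cells for most of them. Lama1 had 605983, 288349 and 284521 normalized counts in the Sox1-FOXA2+ libraries of D6, above all 3 Sox1+FOXA2+ libraries. The groups did not overlap for 8 of the 10 genes, Dab2 and Tfpi being the exceptions. The share of all genes without such overlap was not computed, so that this count describes the levels of the 10 genes only. In Sox1-FOXA2+ cells Lama1 already had 385741, 141849 and 288886 at D4, a day on which Sox1+FOXA2+ cells had 1544 to 5590. Both contrasts use the same Sox1+FOXA2+ libraries and are not independent.

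The gene whose change differed from that in Sox1-FOXA2+ cells was Dusp27, of the family of dual-specificity phosphatases. It had 713, 163 and 186 normalized counts at D2, 1339, 1444 and 1005 at D4, and 1462, 1086 and 1831 at D6 in Sox1+FOXA2+ cells, and 12.2, 0 and 20.035 at D6 in Sox1-FOXA2+ cells. The difference in log2 fold change was 7.69 ± 1.33 (edgeR, adjusted p = 0.047), and the call was kept in 7 of 12 fits that left out 1 library. Within Sox1+FOXA2+ cells the log2 fold change of Dusp27 from D2 to D6 was 1.70 and was not called (edgeR, adjusted p = 0.39). Most of the difference thus came from a fall in Sox1-FOXA2+ cells. In Sox1+FOXA2- cells the gene had 1224, 793 and 1551 at D6. Stra8 was lower at D6 in all 3 gates, with log2 fold changes of -4.89 ± 0.54 in Sox1-FOXA2+ cells and -3.25 ± 0.50 in the Sox1+FOXA2- gate, and its change in Sox1+FOXA2+ cells was not called different from either (differences of 1.69 ± 0.65 and 0.05 ± 0.65, adjusted p = 0.40 and 1).

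**Figure D5:**
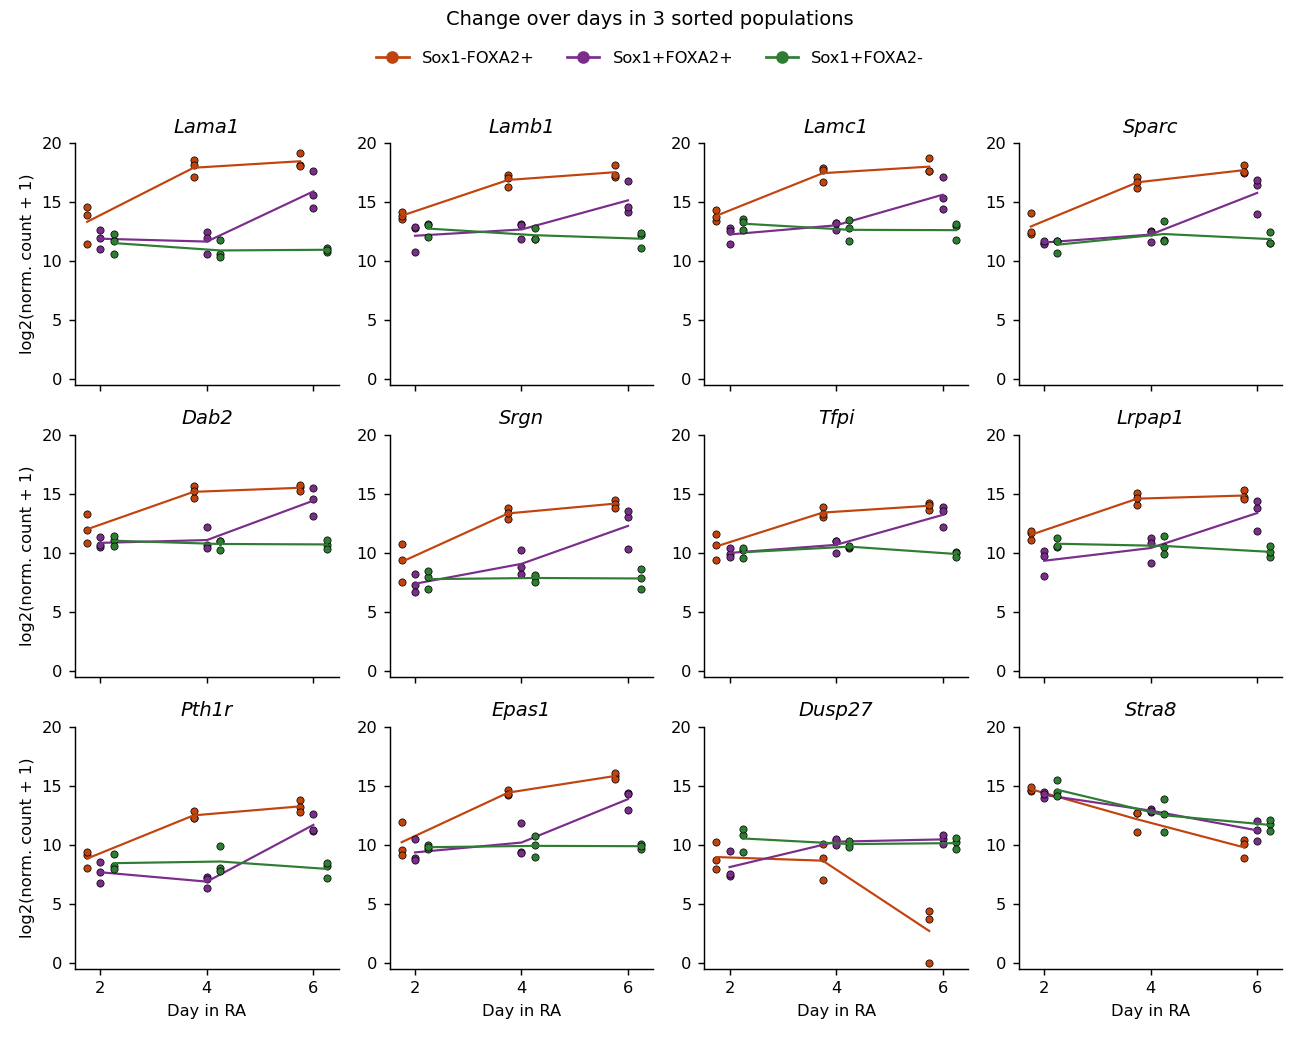
Normalized counts on a log2 scale (pseudocount 1) by day in RA of the 10 genes whose change from D2 to D6 differed between Sox1+FOXA2+ and Sox1+FOXA2- cells, and of Dusp27 and Stra8. Points are replicates and lines join the mean log2 values of a population. Lama1 in Sox1+FOXA2+ cells stays with Sox1+FOXA2- cells at D4 and lies between both single-positive populations at D6.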

How the data were processed

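RNA of sorted pools was sequenced, and the authors deposited 1 table of raw read counts per gene, made with STAR, SAMtools and featureCounts on the mouse genome with GENCODE M21 (GRCm38). Versions, strand setting and handling of duplicate reads are not given in the sources used here. The table held 55450 genes in 57 libraries, and another 92 rows named no gene and held 0 counts. The study calls the 3 libraries of a group biological replicates, from 1 cell line, so that p-values measure the spread between these cultures. A gene that lies inside another gene loses reads when overlaps are not counted, and the share of its exon bases so placed is given where it matters. Total counts cover counting error only, since molecular identifiers were not counted.

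Counts of the 9 Sox1+FOXA2+ libraries were tested in edgeR 4.0.16 under R 4.3.3 (TMM scaling, filterByExpr at 10 counts minimum and 15 in total, quasi-likelihood test, Benjamini-Hochberg adjustment over all genes tested). Genes with an adjusted p under 0.05 were called, and every p in the report is from this test unless named otherwise. The SE of a log2 fold change is its size divided by the square root of F, and the prior count was 0.125. Differences in change between gates were interaction terms in a fit over 27 libraries. Levels were normalized by DESeq2 1.42.0 size factors over all 57 libraries, as in the study. The tests were run on simulated counts first. List medians cover the genes that passed the filter.

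Named genes were Foxa2 and Sox1, list members, up to 10 highest and 10 lowest changes between D2 and D6 (up to 5 elsewhere) among called genes with a mean of at least 100 normalized counts and, between days, no overlap of libraries, without clone-named genes, and the 10 most variable genes at D6. The 36 lists, the libraries and the tests were chosen with earlier results of these data known. Alternatives were DESeq2, its size factors in edgeR, no filter, a replicate block, other sets of libraries in the fit, and leaving out each library in turn. Tables and figures were made with Python 3.11.15 (pandas 2.3.3, numpy 2.4.6 and matplotlib 3.10.9). Promoters were RefSeq sequences of GRCm38.p6.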

Additional observations from a re-analysis of the deposited data

Results flagged for a closer look

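The change from D2 to D6 differed between gates by an interaction test (edgeR). Against Sox1-FOXA2+ cells 1 gene differed, Dusp27 (7.69). Against Sox1+FOXA2- cells 10 genes differed. The differences in log2 fold change were 5.25 for Srgn, 5.21 for Lama1, 4.78 for Lrpap1, 4.50 for Pth1r and 4.39 for Epas1. They were 4.22 for Dab2, 4.21 for Sparc, 4.16 for Lamc1, 4.05 for Lamb1 and 3.51 for Tfpi. Groups of 3 libraries are too small for a test of single outlying libraries.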

How the results depend on the processing

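The log2 fold changes of the genes called between D2 and D6 kept their sign under every alternative, while members of the G2/M, Hox and neural progenitor lists changed sign when 1 library was left out and the number of called genes moved widely. DESeq2 called 2100 genes between D2 and D4, 158 between D4 and D6, 2195 between D2 and D6 and 481 over all days, and 2520 and 1486 for the differences in change from Sox1-FOXA2+ and Sox1+FOXA2- cells. Without the filter on low counts edgeR called 184, 45, 240, 260, 60 and 66 in the same order. With all 36 sorted libraries in the fit it called 2, 17, 108 (45 higher and 63 lower) and 114 in the 4 comparisons of days. With only the 6 libraries compared, edgeR called 0 genes between D2 and D4 (1752 at an unadjusted p under 0.05), 0 between D2 and D6 (1417) and 0 between D4 and D6 (328). With DESeq2 size factors edgeR called 1 gene between D4 and D6, and 20 higher and 2 lower between D2 and D6. Leaving out 1 library gave 4 to 117 genes between D2 and D4, 0 to 26 between D4 and D6 and 16 to 126 between D2 and D6. It gave 17 to 107 over all days, 0 to 5 against Sox1-FOXA2+ and 9 to 20 against Sox1+FOXA2- cells. The highest counts came without D2 replicate 3 (117, 126 and 107) and without D6 replicate 1 (26 and 20). Between D2 and D6 the count was also 30 to 56 without any other library but D6 replicate 3. Against Sox1-FOXA2+ cells it was 0 without D2 replicate 3, D6 replicate 2 or D6 replicate 3 of those cells or D2 replicate 2 of Sox1+FOXA2+ cells, and against Sox1+FOXA2- cells it was 17 without D2 replicate 1 of Sox1+FOXA2+ cells. The spread between replicates at D2 was 0.680 with a minimum mean of 500, and at D4 1.37 with a minimum of 20 and 0.753 with 500.

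With the replicate number as a block edgeR called 124 genes between D2 and D4, 22 between D4 and D6, 162 between D2 and D6 (135 higher and 27 lower) and 169 over all days, and 4 and 12 for the differences in change. The correlation of deviations between same-numbered libraries ran from -0.187 to 0.269, so that the numbers were not read as pairs. Over all alternatives, 582 recomputed values of single genes kept their side of the threshold, 84 passed it newly and 64 lost it. The cause of these shifts was not tested. With 3 libraries a day and a median gap of 1.01 to 1.35 between replicates on the log2 scale, the smallest difference called between D2 and D6 was that of F11r (-2.55), and some larger ones were not called.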

Other observations

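Dkk1, an inhibitor of Wnt signalling, was at 0 in all D2 and D4 libraries and had 267, 2254 and 86.3 normalized counts at D6, at least 305-fold higher than the D2 floor of 3 counts per library, but it was not called (edgeR, adjusted p = 0.23). The gene is a member of the list of Wnt targets and inhibitors, of which 14 genes were tested and none was called by edgeR, with 2 at an unadjusted p under 0.05 and 1 called by DESeq2. Runx1, a transcription factor of blood formation, had 87.9, 198 and 166 at D2 and 1776, 2223 and 3067 at D6, with a log2 fold change of 3.70 that was not called (edgeR, adjusted p = 0.17). Of 8 genes of blood and endothelium tested none was called by edgeR (2 at an unadjusted p under 0.05, and 1 by DESeq2), and the summed normalized counts of that list were 969, 2575 and 1161 at D2, 2766, 6019 and 5869 at D4, and 5966, 5994 and 8108 at D6. The mean log2 level of that list differed from its D2 mean by 3.54, -0.48 and 3.44 in D6 replicates 1, 2 and 3. In D6 replicate 2, 6 of its 9 counted members were at 0. Trophoblast genes had sums of 1563, 1677 and 1485 at D2 and 9742, 5818 and 5241 at D6, with 7 tested and none called by edgeR (2 at an unadjusted p under 0.05, and 1 by DESeq2). Krt8, a keratin of simple epithelia, had 842, 2059 and 1771 at D2 and 4049, 6680 and 5577 at D6. Cdh1, the E-cadherin gene, had 3663, 5787 and 3368 at D2 and 2565, 1398 and 1625 at D6 (edgeR, adjusted p = 0.37 for both genes). Of 14 epithelial genes tested 11 had positive log2 fold changes, with a median of 1.34 against 0.44 over all genes. None was called by edgeR, with 4 at an unadjusted p under 0.05 and 1 called by DESeq2. The D6 values lay above all D2 values for 5 of them (10.8% over all genes) and below for Cdh1 alone (4.47%). Without D2 replicate 3 the median was 0.95, against 0.75 over all genes.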
